A study of Homo sapiens with 12 samples.

Results

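The unfolded protein response was described through 10 genes, ERN1, XBP1, ATF6, EIF2AK3, HERPUD1, SEL1L, EDEM1, PDIA4, SDF2L1 and HYOU1, chosen by symbol. All 10 have a row among the 34694 rows of the authors' table of gene means, and 14 probes measure them. A probe counted as detected on an array with a detection p-value under 0.01, and a gene was kept when a probe was detected on at least 4 of 12 arrays, which left 9 of the 10 members and 12483 genes in all. SEL1L was the member not kept. RNA came from 4 established lines of acute lymphoblastic leukemia (ALL), the T-cell (T-ALL) lines Jurkat and Molt4 and the B-cell precursor (BCP-ALL) lines Nalm6 and RS4;11. Each line carried shCREB2 or shCREB3, short hairpin RNAs against the transcription factor CREB, or a scrambled hairpin (shControl), all in the lentiviral vector pLKO1-mCherry. The transduced cells were stable cultures of an established line, with no host tissue. There was 1 array for each pairing of line and vector, so lines serve as replicates (4 arrays per vector) and p-values rest on the spread between these lines. For single hairpins and their difference, that spread was estimated from all 12 arrays, those of the third vector included. The number 3 in shCREB3 names the hairpin and not the gene CREB3.

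Proteins that enter the endoplasmic reticulum (ER) fold there with the help of chaperones. Unfolded protein activates the sensors IRE1α, PERK and ATF6, which lie in the ER membrane. IRE1α splices XBP1 mRNA into a form that encodes an active transcription factor, ATF6 is cut and its released part enters the nucleus, and PERK phosphorylates the translation factor eIF2α. Their target genes encode chaperones and the machinery that sends misfolded protein to the proteasome. B-lineage cells that secrete antibody are known for a strong response through XBP1. The arrays measured mRNA levels, and neither splicing of XBP1 nor cleavage or phosphorylation of a sensor is read from them.

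The short elements through which XBP1 and ATF6 are known to act were looked up in the RefSeq promoter windows of the members (GRCh38.p14, 250 bases before to 50 bases after each gene's start, both strands), because they show which members carry such an element next to their start. All 10 members matched, with 12 windows. The ER stress response element ERSE, CCAAT and CCACG with 9 bases of any kind between them, was in 0.0769% of all 35116 windows, and among the members in that of XBP1. The element ERSE-II, ATTGG and CCACG with 1 base of any kind between them, was in 0.0541% of all windows, and among the members in those of HERPUD1, SDF2L1 and HYOU1. HYOU1 holds it at 2 places. The core of the unfolded protein response element, TGACGTGG, was in 0.729% of all windows and in that of HYOU1, where it overlaps an ERSE-II match. The cAMP response element to which CREB binds, TGACGTCA, was in 1.85% of all windows and in none of the members' windows, while its 5-base core, TGACG, which the 2 longer elements TGACGTGG and TGACGTCA contain, was in 24.6% of all windows and in those of 6 members (ATF6, EDEM1, HERPUD1, HYOU1, PDIA4 and XBP1). The stretches below hold the ERSE or ERSE-II matches with their matched letters in capitals, then the match of the core in EDEM1 likewise, and last the bases before the start of ERN1, where none of these motifs was found. XBP1 has more than 1 window, and the one that holds the match is shown.
HYOU1, chr11:119057271-119057405, minus strand: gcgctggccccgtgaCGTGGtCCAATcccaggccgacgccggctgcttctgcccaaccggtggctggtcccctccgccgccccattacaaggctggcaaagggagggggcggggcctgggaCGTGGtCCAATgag
HERPUD1, chr16:56932012-56932052, plus strand: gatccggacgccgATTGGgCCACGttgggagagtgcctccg
SDF2L1, chr22:21642102-21642142, plus strand: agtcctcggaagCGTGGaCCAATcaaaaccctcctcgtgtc
XBP1, chr22:28800589-28800649, minus strand: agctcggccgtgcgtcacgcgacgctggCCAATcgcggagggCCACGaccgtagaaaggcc
EDEM1, chr3:5187647-5187706, plus strand: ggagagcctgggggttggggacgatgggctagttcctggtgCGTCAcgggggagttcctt
ERN1, chr17:64130145-64130244, minus strand: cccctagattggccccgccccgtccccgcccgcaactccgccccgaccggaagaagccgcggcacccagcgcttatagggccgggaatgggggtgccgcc
In each line the sequence runs 5′ to 3′ along the gene's own strand. The matches in HYOU1 begin 185 and 79 bases before the start, that in HERPUD1 117, that in SDF2L1 188, that in XBP1 52 and that in EDEM1 19 bases before it. A match is a description of letters, and binding was not measured here.

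Of 47323 probes, 83 with an unsure decimal place were left out. Between 14253 and 15595 of the others were detected per array, and median signals lay between 117 and 129. Over the kept genes, pairs of arrays had a correlation of 0.968 to 0.997 within a line and of 0.874 to 0.982 between lines. The Nalm6 array with shCREB2 stood apart: its best correlation was 0.97, and that of any other array was 0.987 or more, so calls of members are also given without it. The lines matched their labelled lineage: all 7 T-cell markers were detected on every array of Jurkat and Molt4, and 6 and 5 of 7 B-cell markers on every array of Nalm6 and RS4;11. These markers do not tell apart lines of the same lineage. Some markers of other lineages were detected on all arrays of a line: B-cell markers in Jurkat (CD79A and CD79B) and Molt4 (these and VPREB1), T-cell markers in Nalm6 (LCK) and RS4;11 (LCK and CD3D), and, at most, 3 of 5 myeloid and 2 of 5 plasma-cell markers, both in Nalm6. Their part in the results was not tested. CREB1, the gene both hairpins target, did not differ from shControl past the test. Its signal lay below shControl on 2 of 8 arrays, with differences of -0.01 in Jurkat and -0.29 in RS4;11, both with shCREB2, and CREB protein was not measured by the arrays. By limma, shCREB2 gave a log2 fold change of 0.08 (SE 0.10, adjusted p = 0.651). For shCREB3 it was 0.29 (SE 0.10, unadjusted p = 0.0159, adjusted p = 0.167 from limma), with 4 of 4 lines above shControl as for 17.2% of all genes. This rise with shCREB3 passed in 1 alternative of the processing (adjusted p = 0.0333 from limma). A second CREB1 probe detected on 12 arrays gave mean changes of 0.06 with shCREB2 and 0.27 with shCREB3. Every direction below is thus that of an array labelled shCREB2 or shCREB3.

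ERN1 was the member that changed most with shCREB2. It was higher with shCREB2 than with shControl in every line, as 17.9% of all genes were. ERN1 encodes IRE1α, the kinase and endoribonuclease that splices XBP1 mRNA. Its log2 signal with shCREB2 was 8.44 in Jurkat, 8.48 in Molt4, 8.30 in Nalm6 and 8.02 in RS4;11. With shCREB3 it was 7.98 in Jurkat, 7.97 in Molt4, 7.28 in Nalm6 and 7.86 in RS4;11. With shControl it was 7.81 in Jurkat, 7.66 in Molt4, 7.33 in Nalm6 and 7.62 in RS4;11. The 4 shCREB2 arrays thus lay above all 4 shControl arrays, as those of 1.31% of all genes did, while the shCREB3 arrays overlapped with shControl and Nalm6 with shCREB3 lay below its own shControl array.

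**Figure D1:**
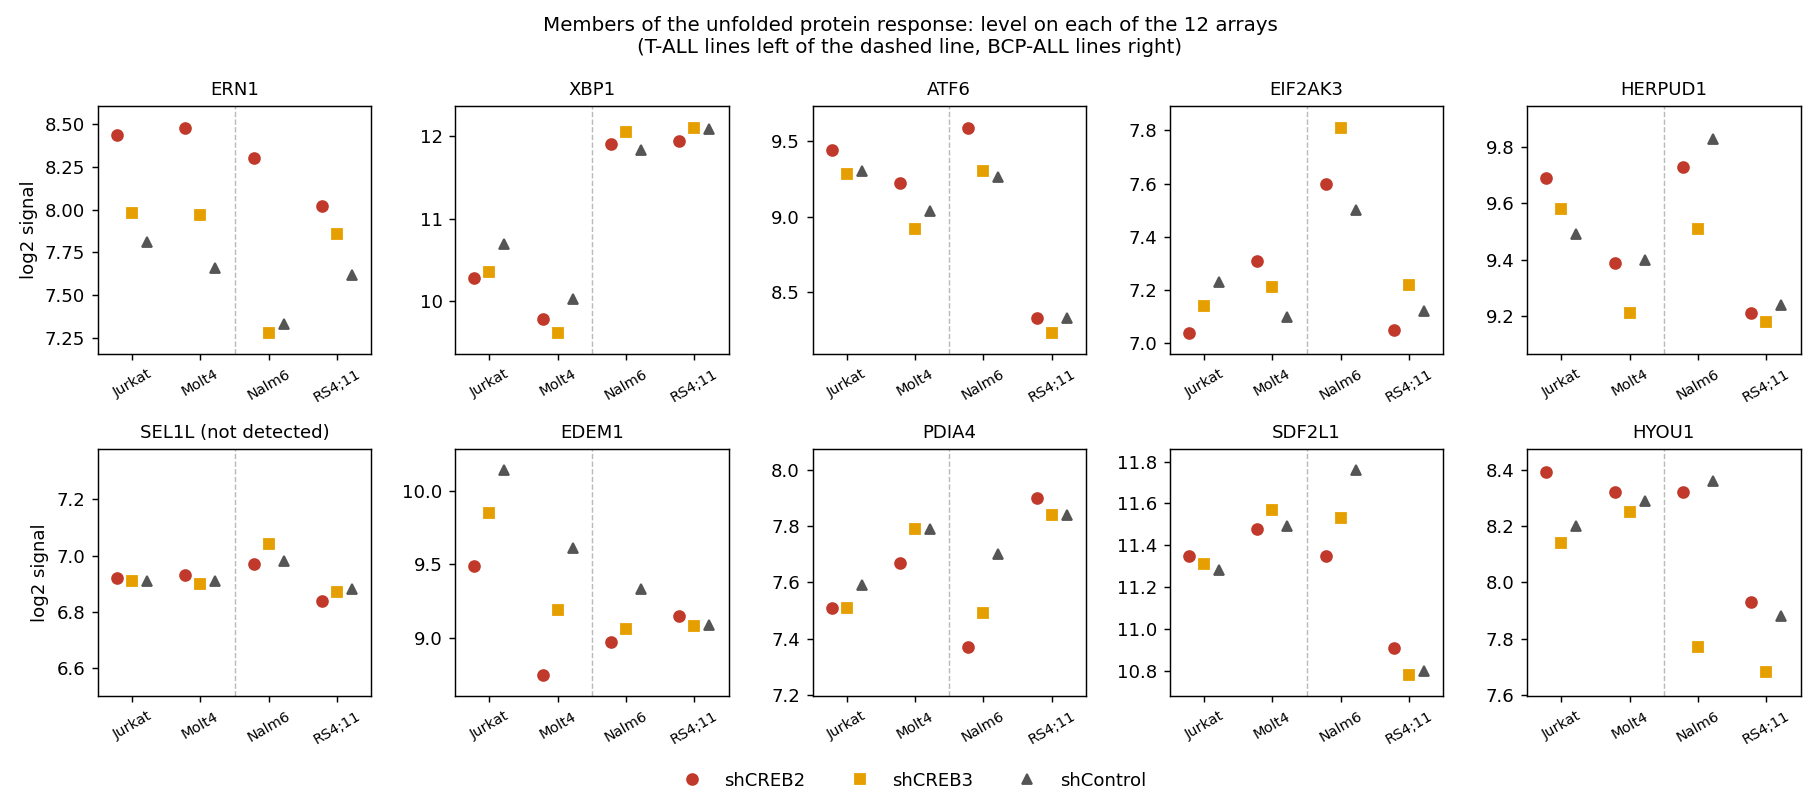
Log2 signal (vertical axis, its range differs between panels) of the 10 members in the 4 lines (horizontal axis), with 1 point per array: red circles shCREB2, orange squares shCREB3, grey triangles shControl. ERN1 with shCREB2 lies at 8.02 to 8.48, above all shControl arrays, XBP1 is at 9.62 to 10.69 in the T-ALL lines and at 11.83 to 12.10 in the BCP-ALL lines, and SEL1L was detected on no array.

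For shCREB2 against shControl, the log2 fold change of ERN1 was 0.70 (standard error SE 0.11, 95% confidence interval 0.45 to 0.95, all 4 lines higher, adjusted p = 0.0103 from limma), a 1.63-fold rise. With shCREB3 the log2 fold change was 0.17 (SE 0.11, interval -0.08 to 0.42, adjusted p = 0.479, higher in 3 of 4 lines). Set against each other directly, ERN1 was lower with shCREB3 than with shCREB2 by a log2 fold change of -0.53 (SE 0.11, adjusted p = 0.0133 from limma). With both hairpins averaged within each line, it rose by 0.43 (SE 0.05, interval 0.31 to 0.56, adjusted p = 0.0462 from limma), and 7 of 8 hairpin arrays lay above shControl of their line. Without the Nalm6 array with shCREB2 the values were 0.58 for shCREB2 (adjusted p = 0.00542), -0.41 between the hairpins (adjusted p = 0.0121) and 0.31 for both (adjusted p = 0.155).

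The ERN1 probe is dim, with restored signals of 282 to 360 with shCREB2, 148 to 269 with shCREB3 and 153 to 218 with shControl. With the background corrected (normexp with detection p-values), its log2 fold change for shCREB2 was 1.20 (adjusted p = 0.0184) and that for both hairpins 0.75 (adjusted p = 0.0918). A second ERN1 probe was detected on 0 of 12 arrays, so the change rests on 1 probe. The call for shCREB2 was lost without Jurkat (0.73, adjusted p = 0.11), without Molt4 (0.66, adjusted p = 0.137) and without the Molt4 array with shControl (0.66, adjusted p = 0.0584), and that between the hairpins without Jurkat (-0.56, adjusted p = 0.0876), without Molt4 (-0.54, adjusted p = 0.0995) and without the Molt4 array with shCREB2 (-0.52, adjusted p = 0.0503). Both of these calls were also lost with the 8 arrays compared alone (adjusted p = 0.0671 and 0.0721 from limma). The same held without the line as block (adjusted p = 0.238 and 0.327 from limma) and with the methods' t-test (adjusted p = 0.347 and 0.296). The call for both hairpins was lost without any of the arrays of Jurkat or Molt4 and without either hairpin array of Nalm6. There the values were 0.31 to 0.56 (adjusted p = 0.0721 to 0.299 from limma). It was also lost with the deposited gene means, the mean of the kept probes, all 12 arrays in 1 fit, no block or the methods' t-test.

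EDEM1 fell with shCREB2. It encodes a lectin-like ER protein that helps to send misfolded glycoproteins to degradation. The log2 signal with shCREB2 was 9.49 in Jurkat, 8.75 in Molt4, 8.97 in Nalm6 and 9.15 in RS4;11. The log2 signal with shCREB3 was 9.85 in Jurkat, 9.19 in Molt4, 9.06 in Nalm6 and 9.08 in RS4;11. The log2 signal with shControl was 10.14 in Jurkat, 9.61 in Molt4, 9.33 in Nalm6 and 9.09 in RS4;11. Jurkat, Molt4 and Nalm6 were lower with both hairpins, and RS4;11 stayed within 0.07 of its shControl array.

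The log2 fold change of EDEM1 was -0.45 for shCREB2 (SE 0.12, interval -0.72 to -0.18, adjusted p = 0.0468 from limma, lower in 3 of 4 lines). For shCREB3 it was -0.25 (SE 0.12, interval -0.51 to 0.02, adjusted p = 0.312, lower in 4 of 4 lines as for 16.3% of all genes). The difference in RS4;11 with shCREB3 rounds to 0.00. The direct difference between the hairpins was 0.20 (SE 0.12, adjusted p = 0.277). With both averaged it was -0.35 (SE 0.10, adjusted p = 0.104, lower on 7 of 8 arrays), and -0.48 (adjusted p = 0.0342 from limma) without RS4;11. The shCREB2 call stood near its limit: leaving out 1 line or array gave log2 fold changes of -0.62 to -0.31 with adjusted p-values of 0.00828 to 0.259, and the call held without RS4;11, without its shCREB2 or shControl array, and without the Nalm6 array with shCREB2 (-0.48, adjusted p = 0.0458), but in none of the other 12 cases. It was also lost with normexp (-0.53, adjusted p = 0.0691), with the deposited gene means (-0.45, adjusted p = 0.0552) and with no filter on dim probes (adjusted p = 0.0789). The same held with the 8 arrays compared alone (adjusted p = 0.151 from limma), without the line as block and with the methods' t-test (adjusted p = 0.408).

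**Figure D2:**
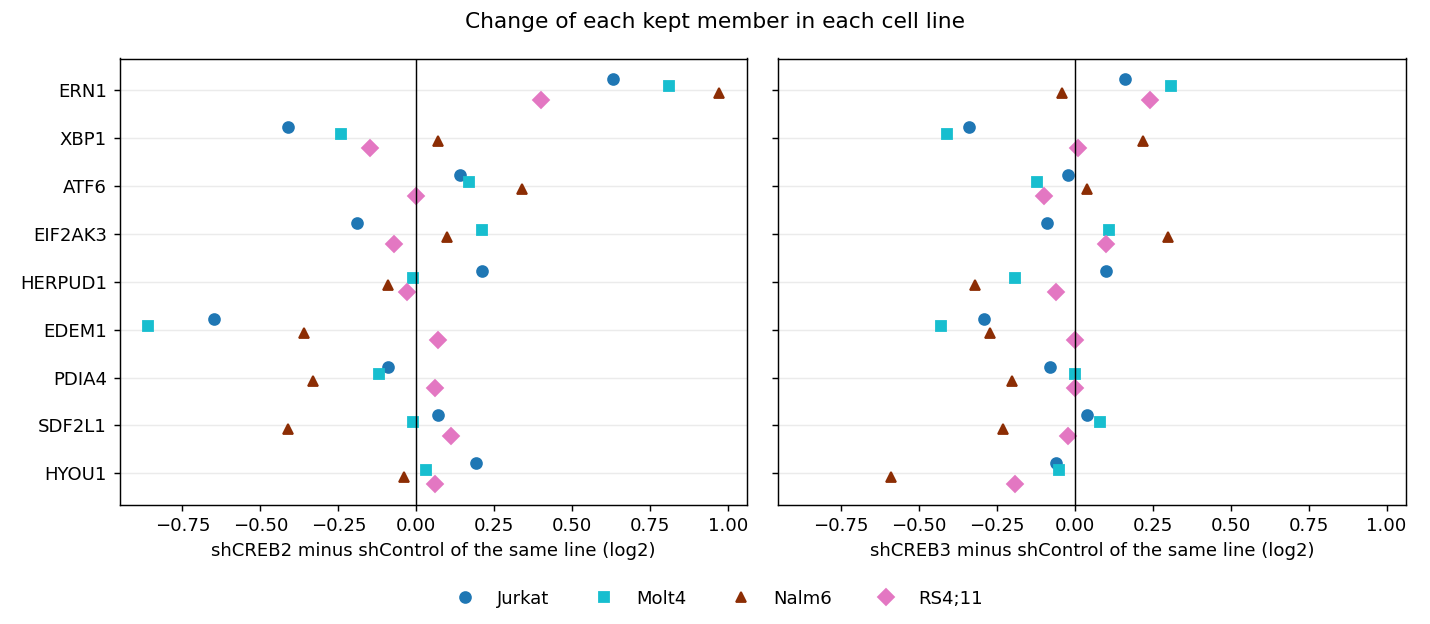
Difference in log2 signal from the shControl array of the same line (horizontal axis) for each kept member (vertical axis), left with shCREB2 and right with shCREB3, with 1 point per line on a common scale. ERN1 lies above 0 in all 4 lines with shCREB2, as 17.9% of all genes do, and EDEM1 lies at -0.86 to 0.07 with shCREB2. HYOU1 lies below 0 in all 4 lines with shCREB3, as 16.3% of all genes do.

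Across the 9 kept members, 2 passed the test for shCREB2 against shControl, 1 in each direction, where 8.11% of all 12483 genes passed (3.83% higher and 4.28% lower). For shCREB3 against shControl 0 members passed, against 1.64% of all genes, and 1 member had an unadjusted p under 0.05 (HYOU1), a limit that 17.8% of all genes met. For both hairpins averaged 1 member passed, against 1.11% of all genes (0.328% higher, the direction of ERN1). Between shCREB3 and shCREB2, 2 members passed (ERN1 and ATF6, both lower with shCREB3), against 14.7% of all genes (7.65% lower). The median log2 fold change of the members was 0.01 for shCREB2, -0.07 for shCREB3 and -0.05 for both, where the median of all genes was 0.01 each time. The 3 comparisons with shControl share the same control arrays.

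**Figure D3:**
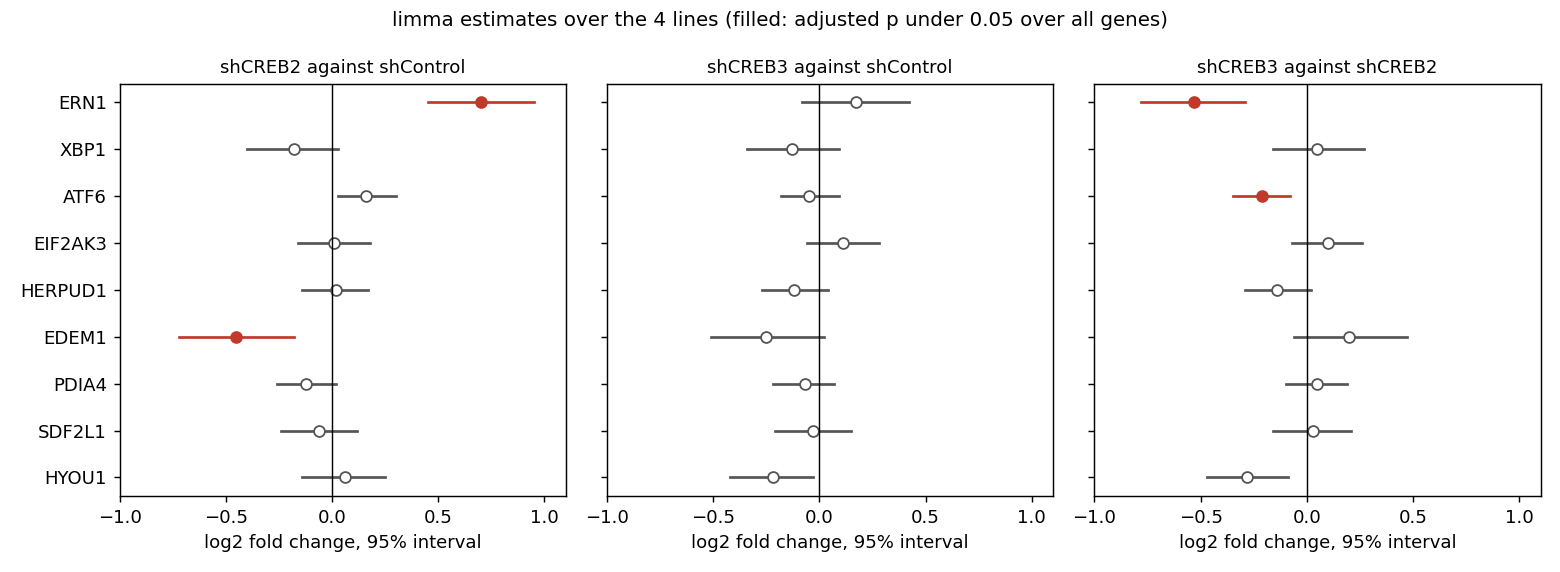
Log2 fold change of each kept member with its 95% confidence interval (horizontal axis) from limma over the 4 lines, for shCREB2 and shCREB3 against shControl and for shCREB3 against shCREB2. Filled red points passed an adjusted p under 0.05 over all genes: ERN1 at 0.70 and EDEM1 at -0.45 with shCREB2, and ERN1 at -0.53 and ATF6 at -0.21 between the hairpins.

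XBP1, the transcription factor made active by IRE1α, differed between the lineages more than between vectors. Its log2 signal in Jurkat was 10.28 with shCREB2, 10.35 with shCREB3 and 10.69 with shControl. In Molt4 these were 9.79, 9.62 and 10.03 in the same order of vectors. In Nalm6 they were 11.90, 12.05 and 11.83. RS4;11 had 11.94 with shCREB2, 12.10 with shCREB3 and 12.09 with shControl. All 6 T-ALL arrays thus lay below all 6 BCP-ALL arrays, as those of 8.76% of all genes did.

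Over lines, the XBP1 level averaged 10.13 in T-ALL and 11.98 in BCP-ALL, a log2 fold change of -1.86 (SE 0.25, interval -2.56 to -1.16, n = 2 lines each, adjusted p = 0.0981 from limma), or 3.63-fold less. It did not pass the test, which 1.05% of all genes passed. The second XBP1 probe, also detected on 12 of 12 arrays, gave -1.82. B-cell markers moved with the same groups, with a summed signal of 1018 to 1275 on T-ALL arrays and 25450 to 34450 on BCP-ALL arrays, and lineage and cell line cannot be told apart with 2 lines each. In bulk RNA, fewer cells that express a gene and less RNA per cell cannot be told apart either.

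With the hairpins, XBP1 changed by -0.41 in Jurkat with shCREB2 and by -0.34 with shCREB3. In Molt4 the changes were -0.24 with shCREB2 and -0.41 with shCREB3, in Nalm6 0.07 and 0.22, and in RS4;11 -0.15 and 0.01. The 4 T-ALL arrays were below their shControl and the 4 BCP-ALL arrays lay on both sides of it. The mean change was -0.35 in T-ALL and 0.04 in BCP-ALL lines, and the difference of -0.38 (SE 0.11, unadjusted p = 0.0118, adjusted p = 0.974 from limma) did not pass over all genes. Over 4 lines the log2 fold change was -0.18 for shCREB2 (adjusted p = 0.274) and -0.13 for shCREB3 (adjusted p = 0.537). The second probe gave smaller mean changes of -0.07 and -0.05.

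ATF6, the sensor that is cut to release a transcription factor, had a log2 signal with shCREB2 of 9.44 in Jurkat, 9.22 in Molt4, 9.59 in Nalm6 and 8.33 in RS4;11. With shCREB3 the ATF6 signal was 9.28, 8.92, 9.30 and 8.23 in the same order of lines. With shControl the ATF6 signal was 9.30, 9.04, 9.26 and 8.33. RS4;11 lay lowest with every vector, below the other 3 lines by more than the spread between their vectors. ATF6 was lower with shCREB3 than with shCREB2 by a log2 fold change of -0.21 (SE 0.06, interval -0.35 to -0.08, adjusted p = 0.0429 from limma).

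Neither hairpin alone differed from shControl past the test for ATF6. The log2 fold change was 0.16 for shCREB2 (SE 0.06, adjusted p = 0.129) and -0.05 for shCREB3 (SE 0.06, adjusted p = 0.739). With shCREB2 4 of 4 lines were higher, as for 17.9% of all genes, though the difference in RS4;11 rounds to 0.00. With median scaling in place of quantile normalization, the difference between the hairpins was -0.15 (adjusted p = 0.109), and with the background corrected -0.26 (adjusted p = 0.0823). The call was lost there and with the 8 arrays compared alone (adjusted p = 0.107 from limma). It was lost too without the line as block and with the methods' t-test (adjusted p = 0.271). The call held without RS4;11, without its shCREB2 array and without the Nalm6 array with shControl, and was lost in each of the other 13 cases in which 1 line or array was left out (adjusted p = 0.0537 to 0.215 from limma), among them the Nalm6 array with shCREB2 (-0.17, adjusted p = 0.0847).

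EIF2AK3 encodes PERK, the kinase that phosphorylates eIF2α. Its probe was detected on 10 of 12 arrays and was dim, with log2 signals of 7.04 to 7.81. The 3 Nalm6 arrays were highest, at 7.60 with shCREB2, 7.81 with shCREB3 and 7.50 with shControl, and the other 9 arrays lay between 7.04 and 7.31. Its log2 fold change was 0.01 for shCREB2 (interval -0.16 to 0.18, adjusted p = 0.939) and 0.11 for shCREB3 (interval -0.06 to 0.28, adjusted p = 0.50).

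HYOU1, an ER chaperone of the HSP70 family, was lower with shCREB3 than with shControl in every line, as 16.3% of all genes were. It did not pass the test. The log2 signal with shCREB2 was 8.39 in Jurkat, 8.32 in Molt4, 8.32 in Nalm6 and 7.93 in RS4;11. The values with shCREB3 were 8.14 in Jurkat, 8.25 in Molt4, 7.77 in Nalm6 and 7.68 in RS4;11. The values with shControl were 8.20 in Jurkat, 8.29 in Molt4, 8.36 in Nalm6 and 7.88 in RS4;11. The largest gap was in Nalm6, and the groups overlapped because the lines differ in level.

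For shCREB3 against shControl the log2 fold change of HYOU1 was -0.22 (SE 0.09, interval -0.42 to -0.03, unadjusted p = 0.0273, adjusted p = 0.214 from limma), and for shCREB2 it was 0.06 (SE 0.09, adjusted p = 0.728). Between shCREB3 and shCREB2 it was -0.28 (SE 0.09, adjusted p = 0.0558 from limma). This difference passed with the deposited gene means (adjusted p = 0.0289), with the mean of the kept probes (adjusted p = 0.0237), with genes detected on all 12 arrays (adjusted p = 0.048) and without the Nalm6 array with shControl (adjusted p = 0.0358), and in no other alternative. It was -0.17 (adjusted p = 0.139) without the Nalm6 array with shCREB3 and -0.25 (adjusted p = 0.0918) without that with shCREB2. The value against shControl was -0.10 (adjusted p = 0.442) without Nalm6 and -0.12 without its shCREB3 array. The HYOU1 probe used is dim, with restored signals of 208 to 347. With the background corrected, the difference between the hairpins was -0.45 (adjusted p = 0.0628 from limma). The second HYOU1 probe gave mean changes of 0.08 with shCREB2 and -0.21 with shCREB3. HYOU1 is the member with 2 ERSE-II matches in the stretch printed above.

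HERPUD1, a membrane protein of ER-associated degradation, had log2 signals between 9.18 and 9.83 on the 12 arrays. Its log2 fold change was 0.02 for shCREB2 (interval -0.14 to 0.17, adjusted p = 0.898) and -0.12 for shCREB3 (interval -0.27 to 0.04, adjusted p = 0.411). Against shCREB2, shCREB3 was lower in 4 of 4 lines, by -0.14 (adjusted p = 0.209). A second HERPUD1 probe, detected on 12 of 12 arrays, gave mean changes of -0.03 and -0.21.

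SDF2L1, a resident of ER chaperone complexes, differed from shControl by -0.06 with shCREB2 (interval -0.24 to 0.12, adjusted p = 0.698) and by -0.03 with shCREB3 (interval -0.21 to 0.15, adjusted p = 0.892). PDIA4, a protein disulfide isomerase, had -0.12 (interval -0.26 to 0.02, adjusted p = 0.282) and -0.07 (interval -0.22 to 0.07, adjusted p = 0.624) for the same comparisons. Nalm6 was the line with the lowest change of both genes. SDF2L1 had log2 signals of 11.35 with shCREB2, 11.53 with shCREB3 and 11.76 with shControl there. PDIA4 had 7.37 with shCREB2, 7.49 with shCREB3 and 7.70 with shControl there. In the other 3 lines their changes lay between -0.12 and 0.11. PDIA4 is dim, with signals of 155 to 260, and with the background corrected its value for shCREB2 was -0.25 (adjusted p = 0.231).

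SEL1L, the adaptor of the ubiquitin ligase HRD1, was detected on 0 of 12 arrays, with log2 signals of 6.84 to 7.04 near the level of undetected probes. Its mRNA could not be compared at this signal, and it enters no comparison.

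The response of the members did not differ between the lineages past the test, and for this comparison 0 of 12483 genes passed in limma (4.33% had an unadjusted p under 0.05). Of the members, XBP1 (above) and EDEM1 had an unadjusted p under 0.05. EDEM1 changed by -0.56 in T-ALL and by -0.14 in BCP-ALL lines, a difference of -0.42 (SE 0.14, unadjusted p = 0.0213, adjusted p = 0.974 from limma). Of their levels, 0 of 9 members differed between T-ALL and BCP-ALL past the test, and the differences besides that of XBP1 lay between -0.21 for EIF2AK3 and 0.39 for EDEM1 (adjusted p = 0.322 to 0.986 from limma).

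Within lines, the members did not move as 1 group. After centring each gene within each line, the 36 pairs of members had a median Pearson correlation of -0.07 over the 12 arrays, with 16 pairs above and 20 below 0. The pairs PDIA4 with SDF2L1 (0.86), ERN1 with ATF6 (0.83) and HERPUD1 with HYOU1 (0.82) were highest, and EIF2AK3 with HYOU1 (-0.80), EIF2AK3 with HERPUD1 (-0.76) and ERN1 with EDEM1 (-0.75) were lowest. Pairs of arrays share a line and a normalization, and these values are descriptions over 12 points. The mean of the 9 centred members stayed between -0.09 and 0.06 on every array. Of 12406 genes outside the members and pathway lists, ARHGDIA (0.98), DNAJC10 (0.98), SERP1 (0.97), CAPZA2 (0.97) and TMEM30A (0.97) correlated most with this mean. As the highest values of a search over 12406 genes they are a description, and shared regulation was not tested.

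The PERK arm and the integrated stress response held the largest change among the other genes of the pathway, EIF2S1, which encodes eIF2α, the substrate of PERK. Of 12 genes 11 were kept. For shCREB2 1 rose (DDIT3) and 1 fell (EIF2S1), where 3.83% of all genes were higher and 4.28% lower. For shCREB3 0 passed, where 1.64% of all genes did. For the mean of both hairpins 1 passed, EIF2S1, against 1.11% of all genes. The log2 signal of EIF2S1 with shCREB2 was 7.71 in Jurkat, 7.83 in Molt4, 7.33 in Nalm6 and 8.34 in RS4;11. With shCREB3 EIF2S1 was at 8.68, 8.93, 8.87 and 8.80, and with shControl at 8.74, 8.77, 9.01 and 8.87 in the same order of lines. The 4 shCREB2 arrays were thus the lowest of the 12, below all shControl arrays as those of 1.85% of all genes were, and shCREB3 overlapped with shControl. The log2 fold change was -1.05 for shCREB2 (SE 0.15, adjusted p = 0.00807 from limma) and -0.03 for shCREB3 (adjusted p = 0.949), and the direct difference of 1.02 passed (adjusted p = 0.00499). Without Jurkat or without Molt4 the shCREB2 value was -1.08 or -1.05 and did not pass (adjusted p = 0.11 and 0.125), and without the Nalm6 array with shCREB2 it was -0.85 (adjusted p = 0.00335). The mean of both hairpins did not pass in 11 of 16 cases in which 1 line or array was left out (-0.73 to -0.35, adjusted p = 0.0721 to 0.299). For this mean, leaving out a line or only its shControl array is the same fit, and the 16 cases count it both ways.

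DDIT3, which encodes the transcription factor CHOP, rose by 0.44 with shCREB2 (SE 0.07, adjusted p = 0.012 from limma, adjusted p = 0.0121 against shCREB3) and had 0.08 with shCREB3 (adjusted p = 0.663). For both hairpins the largest differences by size were -0.54 for EIF2S1 (adjusted p = 0.048) and -0.50 for ASNS, asparagine synthetase (adjusted p = 0.141), on the lower side, and 0.26 for DDIT3 (adjusted p = 0.0734) and 0.14 for PPP1R15A, a regulator of eIF2α phosphatase (adjusted p = 0.174), on the higher side. The value of ASNS was -0.26 (adjusted p = 0.255) without Jurkat or its shControl array. The call of DDIT3 for shCREB2 was lost without Jurkat, without Molt4 and without 3 single arrays, both shControl arrays of the T-ALL lines and Molt4 with shCREB2 (0.36 to 0.44, adjusted p = 0.0509 to 0.138). Without the Nalm6 array with shCREB2 it was 0.50 (adjusted p = 0.00475). The median of the list was -0.11 for shCREB2, -0.03 for shCREB3 and -0.15 for both, against 0.01 over all genes.

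In ER-associated degradation 15 of 15 genes were kept, of which 4 fell and 0 rose with shCREB2, where 8.11% of all genes passed (4.28% lower), and 0 passed with shCREB3, where 1.64% did. For the mean of both hairpins 1 passed, SELS, against 1.11% of all genes. UBE2J1, the ubiquitin-conjugating enzyme of the ER membrane, fell by 0.74 with shCREB2 (SE 0.15, adjusted p = 0.0187 from limma). SELS, now named SELENOS, a membrane selenoprotein that binds the derlins, fell by 0.67 with shCREB2 (SE 0.09, adjusted p = 0.00605) and had 0.01 with shCREB3 (adjusted p = 0.973). Its other kept probes gave mean changes with shCREB2 of -0.41 (detected on 12 arrays) and 0.04 (on 7 arrays), and the mean of the 3 probes fell by 0.35 (adjusted p = 0.0152). C2orf30, now named ERLEC1, a lectin, fell by 0.29 (adjusted p = 0.0361) and DERL1, a derlin, by 0.24 (adjusted p = 0.0441). Compared directly, shCREB3 was higher than shCREB2 for SELS (0.68, adjusted p = 0.00391), UBE2J1 (0.86, adjusted p = 0.00676) and C2orf30 (0.45, adjusted p = 0.00571), and the difference of DERL1 did not pass (0.12, adjusted p = 0.232). For both hairpins the list's extremes were SELS at -0.33 (adjusted p = 0.0462), UBE2J1 at -0.31 (adjusted p = 0.131), OS9 at 0.09 and DERL2 at 0.08. With 1 line or array left out, the shCREB2 calls of DERL1 and C2orf30 were lost in 14 and 12 of 16 cases (adjusted p up to 0.185 and 0.201), that of UBE2J1 in 7 (0.0537 to 0.132), each from Jurkat, Molt4 or the Nalm6 array with shControl, and that of SELS without Jurkat or without Molt4 (-0.64 to -0.61, adjusted p = 0.109 and 0.125). The call of SELS for the mean of both hairpins was lost in 11 of them (-0.44 to -0.22, adjusted p = 0.0931 to 0.299), with the same repeated fits as for EIF2S1. Without the Nalm6 array with shCREB2 the values for that hairpin were -0.54 for UBE2J1 (adjusted p = 0.00865), -0.65 for SELS (adjusted p = 0.0046), -0.25 for DERL1 (adjusted p = 0.051) and -0.24 for C2orf30 (adjusted p = 0.0667), and that of UBE2J1 for the mean of both was -0.13. The median of the list was -0.07 for shCREB2, 0.01 for shCREB3 and -0.06 for both.

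**Figure D4:**
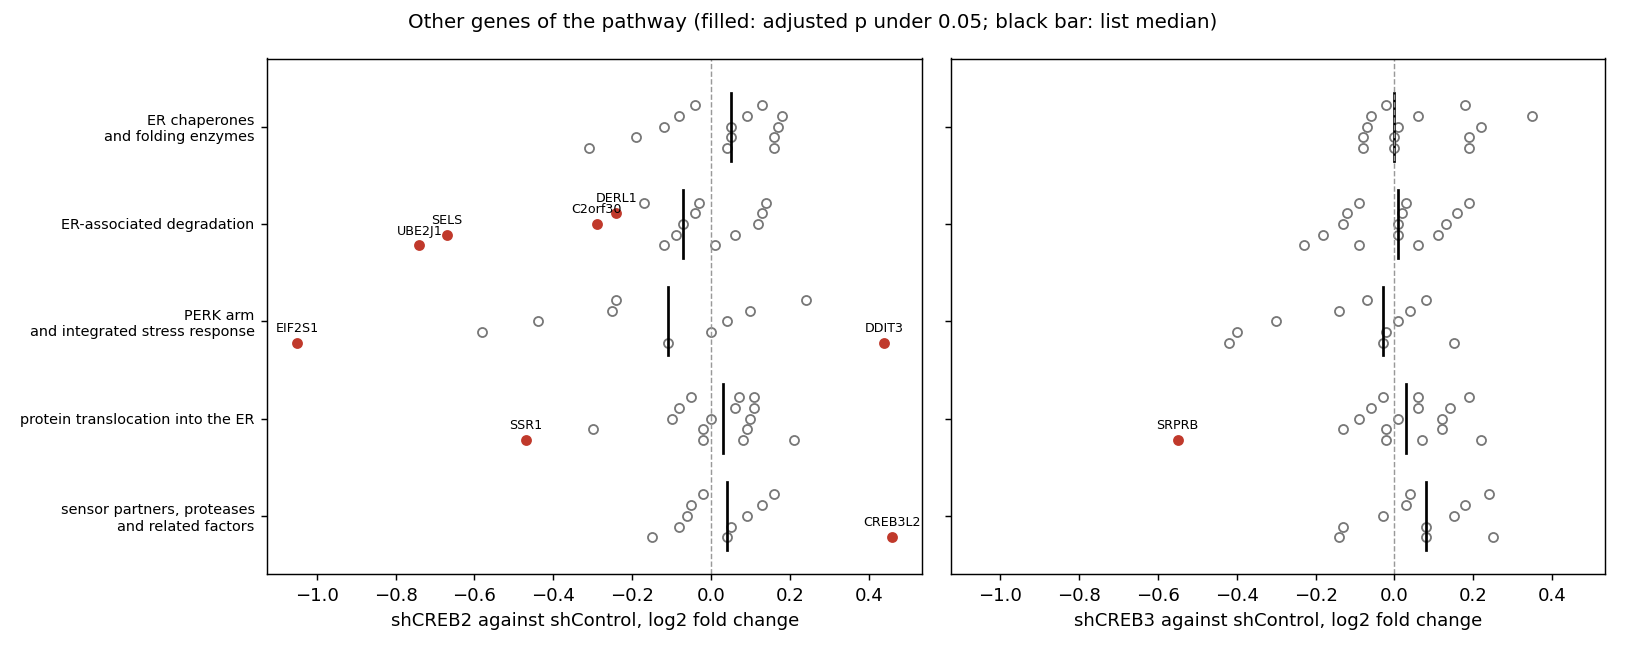
Log2 fold change against shControl (horizontal axis, common scale) of the kept genes of 5 pathway lists (vertical axis), left for shCREB2 and right for shCREB3, with 1 point per gene and a black bar at the list's median. Filled and named points passed an adjusted p under 0.05 over all genes, 8 with shCREB2, from EIF2S1 at -1.05 to CREB3L2 at 0.46, and SRPRB at -0.55 with shCREB3. Of all genes 8.11% passed with shCREB2 and 1.64% with shCREB3.

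Of 17 ER chaperones and folding enzymes 14 were kept. Of these 0 passed for shCREB2, for shCREB3 or for both, where 8.11%, 1.64% and 1.11% of all genes did. Their medians were 0.05 for shCREB2, 0.00 for shCREB3 and 0.05 for both. For both hairpins the extremes were ARMET, now named MANF, at -0.09 and CANX, calnexin, at -0.06, and PDIA6 at 0.19 and DNAJB11 at 0.16 (adjusted p = 0.124 to 0.596 from limma).

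HSPA5, the ER chaperone BiP that binds the sensors, was picked out after its values were seen, because its single-hairpin values had opposite signs and a mean of 0.02. Its log2 signal was 7.91 in Jurkat, 8.90 in Molt4, 8.16 in Nalm6 and 9.12 in RS4;11 with shCREB2. It was 8.39, 9.59, 9.61 and 9.15 with shCREB3 and 8.16, 8.94, 9.20 and 9.05 with shControl in the same order of lines. The gap between the hairpins was widest in Nalm6 and near 0 in RS4;11. Neither value against shControl passed (-0.31 for shCREB2, SE 0.18, adjusted p = 0.32, and 0.35 for shCREB3, SE 0.18, adjusted p = 0.359). The difference between shCREB3 and shCREB2 was 0.66 (SE 0.18, adjusted p = 0.0387 from limma), in a comparison that 14.7% of all genes passed. As HSPA5 was picked for its opposite signs, this p-value describes the gap and is no support for it. The call was lost with no filter on dim probes (adjusted p = 0.0738), with the 8 arrays compared alone (adjusted p = 0.112), without the block and with the methods' t-test. The difference was 0.41 (adjusted p = 0.0265) without the Nalm6 array with shCREB2 and 0.40 (adjusted p = 0.0413) without Nalm6. The call was also lost in 10 of 16 cases in which 1 line or array was left out, each from Jurkat, Molt4, the Nalm6 array with shCREB3 or the RS4;11 array with shControl (0.52 to 0.72, adjusted p = 0.0534 to 0.167).

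All 16 genes of protein translocation into the ER were kept, with a median of 0.03 for either hairpin and 0.01 for both. With shCREB2 1 of them passed, where 8.11% of all genes did, and with shCREB3 1 passed, where 1.64% did. For both hairpins 0 passed, where 1.11% of all genes did. SSR1, a subunit of the translocon-associated complex, fell by 0.47 with shCREB2 (SE 0.09, adjusted p = 0.0152 from limma) and differed from shCREB3 (0.69, adjusted p = 0.00391). SRPRB, a subunit of the signal recognition particle receptor, fell by 0.55 with shCREB3 (SE 0.09, adjusted p = 0.0258) and differed from shCREB2 (-0.46, adjusted p = 0.0111). With 1 line or array left out, the call of SSR1 was lost in 7 of 16 cases (-0.47 to -0.41, adjusted p = 0.0546 to 0.146) and that of SRPRB in 10 (-0.58 to -0.47, adjusted p = 0.0512 to 0.36), from Jurkat, Molt4 or Nalm6. Without the Nalm6 array with shCREB2, SSR1 had -0.43 with that hairpin (adjusted p = 0.0213) and -0.02 for the mean of both. For both hairpins SRPRB had -0.33, SSR1 -0.13, SEC63 0.13 and SPCS1 0.11 (adjusted p = 0.0636 to 0.497).

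Of 14 sensor partners, proteases and related factors 11 were kept, of which 1 rose with shCREB2, where 3.83% of all genes did. With shCREB3 and for the mean of both 0 passed, where 1.64% and 1.11% of all genes did. CREB3L2, an ER-anchored relative of ATF6, rose by 0.46 with shCREB2 (SE 0.07, adjusted p = 0.00798 from limma), had 0.18 with shCREB3 (adjusted p = 0.195), and differed between the hairpins by -0.29 (adjusted p = 0.0206). The call between the hairpins was lost in 5 of 16 cases in which 1 line or array was left out (adjusted p = 0.0704 to 0.112 from limma). CREB3L2 was higher on 8 of 8 hairpin arrays, as 4.81% of all genes were. Its shCREB2 call was lost without Jurkat or without Molt4 (0.40 to 0.49, adjusted p = 0.11 and 0.125). Without the Nalm6 array with shCREB2 it was 0.44 (adjusted p = 0.0068). For both hairpins CREB3L2 had 0.32 (adjusted p = 0.0547) and DDRGK1 0.20 (adjusted p = 0.0901), and on the lower side CREB3 had -0.11 (adjusted p = 0.256) and BAK1 -0.04 (adjusted p = 0.732). The medians of the list were 0.04 for shCREB2, 0.08 for shCREB3 and 0.05 for both.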

How the data were processed

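RNA of 4 ALL lines with 3 vectors was hybridised to 12 arrays of Illumina HumanHT-12 BeadChips, 1 array for each pairing of line and vector. The labels do not say which arrays shared a chip. The authors deposited probe signals from GenomeStudio without normalization, a detection p-value per probe and array, and a table of gene means, quantile-normalized, on a natural log scale. In 556840 of 567876 deposited signal cells (98.06%) the decimal mark was lost. It was placed here so that the mean of a gene's probes came nearest to the deposited mean (tolerance 0.02, natural log), and 83 probes of 28 genes with an unsure place, none of them a member's, were left out.

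Quantile normalization and log2 transformation of the restored signals followed the methods, with no background subtracted, which compresses changes of dim probes. The brightest kept probe stood for a gene. Pairing is by cell line as labelled, since 3 arrays hold RNA of the same line. Their correlation of 0.968 to 0.997 overlaps with that between lines (0.874 to 0.982), so these ranges alone do not check the pairing. Line differences (both hairpins, lineage response), line means (lineage level) or all arrays with the line as a block (single hairpins) were fitted with limma 3.58.1 in R 4.3.3, with Benjamini-Hochberg adjustment over 12483 genes and a limit of 0.05. The steps were tested on simulated data. Python 3.11.15, numpy 2.4.6, pandas 2.3.3 and matplotlib 3.10.9 did the rest. Alternatives were background correction by normexp (offset 16), median scaling, the deposited gene means, other filters, the mean of probes, unpaired, smaller and single fits, the methods' t-test, and each line or array left out.

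The members, the pathway lists and the markers were chosen with earlier results of these data known. Text names all members, and of each list the genes past the test for a comparison with shControl and the 2 largest differences in each direction for both hairpins. The number of arrays limits the precision.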

Additional observations from a re-analysis of the deposited data

Results flagged for a closer look

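The 4 lines' levels with each vector and their changes with each hairpin were examined for the 9 kept members, 45 groups of 4 values. In 4 groups, all of them levels, 1 value stood far from the other 3, and chance alone flags about 1 group in 20. Nalm6 with shCREB3 was low in ERN1, at a log2 signal of 7.28 against 7.86 to 7.98 in the other lines with shCREB3. The same array was high in EIF2AK3, at 7.81 against 7.14 to 7.22. Jurkat with shCREB3 was high in EDEM1, at 9.85 against 9.06 to 9.19. RS4;11 with shCREB2 was low in HYOU1, at 7.93 against 8.32 to 8.39. Nalm6 was the highest line in EIF2AK3, Jurkat the highest in EDEM1 and RS4;11 the lowest in HYOU1 with every vector, shControl included. The flags of these genes thus do not set the named hairpin array apart from the other arrays of its line.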

How the results depend on the processing

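For both hairpins, the 1 member past the test became 0 with normexp, with the deposited gene means, with the mean of the kept probes, with all 12 arrays in 1 fit and with the methods' t-test. For shCREB2 the 2 members became 1 with normexp, with the deposited gene means and without a filter on dim probes, and 0 with the 8 arrays compared alone and with the methods' t-test. Between shCREB3 and shCREB2 the 2 members became 1 with normexp and with median scaling, and 0 with the 8 arrays compared alone and with the methods' t-test. For shCREB3 against shControl and for both comparisons of T-ALL with BCP-ALL the count stayed at 0 in every alternative run. Without the line as replicate block, the count was 0 for both hairpins, 0 for shCREB2, 0 for shCREB3 and 0 between the hairpins. With 1 line or array left out, it ran between 0 and 2 for both hairpins, between 0 and 2 for shCREB2 and between 0 and 3 between the hairpins.

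Over all genes, the 139 calls for both hairpins became 0 with normexp, the deposited means, the mean of probes, no block or the t-test, 78 with no filter, 277 with genes detected on all 12 arrays and 255 with median scaling (49.8% of them higher, against 29.5%). The 1012 calls for shCREB2 became 0 without the block or with 8 arrays and 1 with the t-test. The 205 for shCREB3 became 92 with normexp, 126 with the deposited means, 114 with no filter, 834 with 8 arrays, and 0 without the block or with the t-test (280 with median scaling, 62.5% higher against 27.3%). The 1834 between the hairpins became 4 without the block, 396 with 8 arrays and 0 with the t-test (1857 with median scaling, 67.7% higher against 47.9%). The 131 for the lineage level became 310 with normexp, 58 with no filter and 8 with genes detected on all 12 arrays. With 1 line or array left out, the counts ran from 0 to 435 for both hairpins, 0 to 1506 for shCREB2, 0 to 840 for shCREB3, 0 to 2219 between the hairpins, 0 to 283 for the lineage level and 0 to 286 for the lineage response (286 without RS4;11 or its shControl array), and all were 0 without Jurkat and without Molt4, so the shares over all genes move likewise. The 1012 for shCREB2 became 56 without the Molt4 array with shControl. The methods' t-test is counted here paired by line and after Benjamini-Hochberg adjustment. At the unadjusted threshold the study used, it gave 1753 genes for both hairpins, 1767 for shCREB2, 1965 for shCREB3 and 2175 between the hairpins, with 1 (ERN1), 1 (ERN1), 0 and 2 (ATF6 and HERPUD1) of the members. The cause was not tested.

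Of 2298 values of single genes under the alternatives, 58 changed sign, 0 of them of a gene past the test in that same comparison. For both hairpins and the lineage response, fits without a line and without only its shControl array are the same, and these counts hold both. For shCREB2, EIF2AK3 had -0.0092 with normexp, and HERPUD1 had -0.0098 with median scaling, -0.01 with the deposited means and -0.005 with the mean of probes. The lineage difference of HERPUD1 was -0.02 with median scaling and -0.09 over shControl arrays alone, and the response difference of ATF6 was 0.00044 with median scaling. With 1 line or array left out, the value for both hairpins ran over -0.12 to 0.0023 for HERPUD1, -0.08 to 0.05 for SDF2L1, -0.00037 to 0.23 for SEC63 and -0.10 to 0.01 for BAK1. For shCREB2 it ran over -0.05 to 0.08 for EIF2AK3, -0.05 to 0.07 for HERPUD1 and -0.11 to 0.06 for SDF2L1, and for shCREB3 over -0.07 to 0.06 for SDF2L1. Between the hairpins it ran over -0.02 to 0.14 for XBP1, -0.0011 to 0.09 for PDIA4 and -0.06 to 0.08 for SDF2L1. The lineage level ran over -0.18 to 0.90 for ATF6, -0.47 to 0.04 for EIF2AK3, -0.23 to 0.25 for HERPUD1, -0.22 to 0.12 for PDIA4 and -0.13 to 0.58 for SDF2L1. The lineage response ran over -0.17 to 0.34 for ERN1, -0.15 to 0.09 for ATF6, -0.25 to 0.05 for EIF2AK3, -0.10 to 0.19 for PDIA4 and -0.00025 to 0.37 for SDF2L1.

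ERN1, EIF2AK3, PDIA4 and HYOU1 lie near the array background, where the signal limits what a change can show, and SEL1L lies within it.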
